A study of Mus musculus with 18 samples.

Results

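The transcripts of 9 genes of hepatic glucose handling and insulin signalling were followed in mouse liver: Slc2a2, Pklr, Pck1, Fbp1, G6pc, Gys2, Pygl, Irs1 and Irs2. They were chosen by symbol, as every non-control probe that the array design names for 1 of these genes, which gave 11 of 39429 probes and 9 of the 31829 gene or transcript names on the array. Gys2 and Irs1 had 2 probes each and the other 7 genes had 1. The livers came from 18 male C57BL/6J mice, 8 on a LIN diet made with linseed oil and 10 on a PALM diet made with palm oil. Both diets were high in fat, with 51.1% of energy from lipid, 32.1% from carbohydrate and 16.7% from protein, and both were fed for 5 weeks to mice that were 13 weeks old at the end. The fat of the LIN diet held 66.7% polyunsaturated, 22.5% monounsaturated and 9.7% saturated fatty acids, with alpha-linolenic acid at 49.7%. The fat of the PALM diet held 8.8% polyunsaturated, 34.8% monounsaturated and 55.6% saturated fatty acids. All mice had eaten a standard diet for 1 week before assignment at random at 8 weeks of age, and they were housed collectively and fed ad libitum. A low-fat group is not analysed here, so both groups carry the high-fat feeding, and the labels do not give the feeding state at death.

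The liver takes up glucose after a meal and releases it in fasting, and GLUT2, encoded by Slc2a2, carries glucose across the hepatocyte membrane in both directions. Pyruvate kinase (Pklr) closes glycolysis, whereas phosphoenolpyruvate carboxykinase (Pck1), fructose bisphosphatase (Fbp1) and glucose-6-phosphatase (G6pc) catalyse the steps that make gluconeogenesis run the other way. Glycogen synthase 2 (Gys2) and liver glycogen phosphorylase (Pygl) build and break down the glycogen store. The insulin receptor phosphorylates Irs1 and Irs2, the adaptor proteins through which its signal reaches PI3-kinase and AKT. Insulin is known to restrain transcription of Pck1, G6pc and Irs2 through FOXO factors, glucagon to raise Pck1 through CREB, and glucose to raise Pklr through the factor ChREBP, the product of Mlxipl.

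Promoter windows of 250 bases before the annotated start were available for 8 of the 9 genes in RefSeq on GRCm38.p6, with 2 start sites for Pklr. The 5 windows below are shown because each holds at least 1 of the motifs searched, printed 5′ to 3′ along the gene's own strand with the motif in capitals. The last base of each window is position −1.
Pklr downstream start, chr3:89136373-89136622 (+ strand): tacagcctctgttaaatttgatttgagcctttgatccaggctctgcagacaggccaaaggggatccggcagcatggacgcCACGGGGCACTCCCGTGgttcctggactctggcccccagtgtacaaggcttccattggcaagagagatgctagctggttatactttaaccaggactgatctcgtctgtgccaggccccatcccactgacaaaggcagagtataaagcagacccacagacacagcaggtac
Pck1, chr2:173152823-173153072 (+ strand): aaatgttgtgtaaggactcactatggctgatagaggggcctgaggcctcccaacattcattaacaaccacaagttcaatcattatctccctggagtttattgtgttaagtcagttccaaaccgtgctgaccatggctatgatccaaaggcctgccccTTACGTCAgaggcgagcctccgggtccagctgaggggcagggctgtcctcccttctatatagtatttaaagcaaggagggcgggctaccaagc
G6pc, chr11:101367466-101367715 (+ strand): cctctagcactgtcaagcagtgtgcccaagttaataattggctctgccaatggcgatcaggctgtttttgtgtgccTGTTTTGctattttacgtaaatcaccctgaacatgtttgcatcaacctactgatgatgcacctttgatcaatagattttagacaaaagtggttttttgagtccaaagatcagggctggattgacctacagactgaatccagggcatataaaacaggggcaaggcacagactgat
Irs1, chr1:82291440-82291689 (- strand): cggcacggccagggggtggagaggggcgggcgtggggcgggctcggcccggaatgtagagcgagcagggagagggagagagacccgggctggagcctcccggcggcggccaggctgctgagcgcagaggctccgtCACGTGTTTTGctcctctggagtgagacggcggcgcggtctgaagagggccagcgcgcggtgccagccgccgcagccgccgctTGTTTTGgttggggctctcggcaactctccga
Irs2, chr8:11008930-11009179 (- strand): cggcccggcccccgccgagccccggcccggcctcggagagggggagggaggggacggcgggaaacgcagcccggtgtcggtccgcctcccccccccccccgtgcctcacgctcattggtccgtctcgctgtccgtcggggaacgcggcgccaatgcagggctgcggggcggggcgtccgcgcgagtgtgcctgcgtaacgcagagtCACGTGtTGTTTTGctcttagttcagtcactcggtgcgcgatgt
The Pklr capitals mark the carbohydrate response element (ChoRE) at −170 to −154, a pair of E-box-like motifs at a fixed spacing. In Pck1 the capitals mark the cAMP response element TTACGTCA at −93 to −86. In G6pc they mark the insulin response core CAAAACA, read as TGTTTTG along the gene, at −174 to −168. Irs1 holds that core at −111 to −105 and at −32 to −26, and the E-box CACGTG at −115 to −110, which overlaps the first core. Irs2 holds the core at −37 to −31 and the E-box at −44 to −39. Both strands of 32851 promoter windows of the same length were searched. The insulin response core was found in 5.56% of them, the E-box in 6.02%, the cAMP response element in 0.447% and the ChoRE in 0.0974%. None of the motifs was found in the windows of Slc2a2, Fbp1 or Pygl or at the upstream start of Pklr. Such a match describes letters only and shows no binding.

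Each liver was hybridised to a 1-colour Agilent array, and a level is given here as the log2 of a probe's signal over the 75th percentile of its array. A level of 0 therefore equals that percentile, and levels of different probes are not set against each other. The 75th percentile itself lay between 117 and 204 intensity units, and 17258 to 22445 probes per array stood well above background. The image software marked 238 to 1703 spots per array as uneven or as outliers. Because bright liver probes were among them, results are given with marked spots kept and, where at least 6 arrays of each diet remained, with marked spots left out. The arrays were taken to lie on 5 slides, each with mice of both diets. The slide numbers of 4 come from the file headers. The 3 arrays called slide 1 carry no number there and were grouped by the number shared in their file names. Marked spots numbered 1283 to 1703 per array on slides 4 and 5, and 238 to 682 on the other slides. All 8 hepatocyte marker genes examined, among them Alb and Ttr, were well above background in every liver, whereas none of 5 kidney tubule markers was so on 9 or more arrays.

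Markers of some other cell types differed among the samples. Of 5 adipocyte genes, Cfd was above background on 18 arrays, Adipoq on 4 and Lep on none, and the list's summed level ranged from 0.93 to 5.18 in LIN livers and from −2.04 to 3.36 in PALM livers. Of 5 skeletal muscle genes only Pygm was above background on 9 or more arrays, and the summed level ranged from −1.37 to 5.78 in LIN livers and from −1.47 to 0.78 in PALM livers, with LIN replicate 6 at the top. Of 7 pancreas genes 3 were above background on 9 or more arrays and 2 on none, and the summed level ranged from −0.73 to −0.37 in LIN livers and from −1.03 to 3.50 in PALM livers, with PALM replicate 1 at the top and the others at 0.67 or less. Duct cell markers summed to −0.31 to 0.69 in LIN livers and −0.08 to 2.06 in PALM livers, highest in PALM replicate 8. Their part in the results below was not tested. Since whole tissue was measured, fewer cells of a type and less RNA per cell cannot be told apart.

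None of the 9 genes changed between the diets at an adjusted p below 0.05, in a linear model (limma) fitted across all probes with Benjamini-Hochberg adjustment. With marked spots kept, 0 of 11 probes were called, against 0.907% of all 20386 probes tested. With marked spots left out, 0 of the 8 testable probes were called, against 0.753% of 19510 probes. At an unadjusted p below 0.05 the count was 2 of 11 probes with marked spots kept, where 11% of all probes passed, and 1 of 8 with them left out, where 10.6% of all probes passed. The differences, given as LIN minus PALM on the log2 scale, were above 0 for 6 probes and below 0 for 5. Their median was 0.021 with marked spots kept, beside 0.002 over all probes, and 0.095 with them left out, beside −0.0005. With marked spots kept and all 18 livers, the 95% confidence interval of every probe lay within 1 log2 unit of 0 on both sides. That of Pklr reached −0.98, and the Pklr difference moved to −0.69 without LIN replicate 8. The Fbp1 spot was saturated on 7 arrays, so its interval does not bound a change in the transcript.

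**Figure D1:**
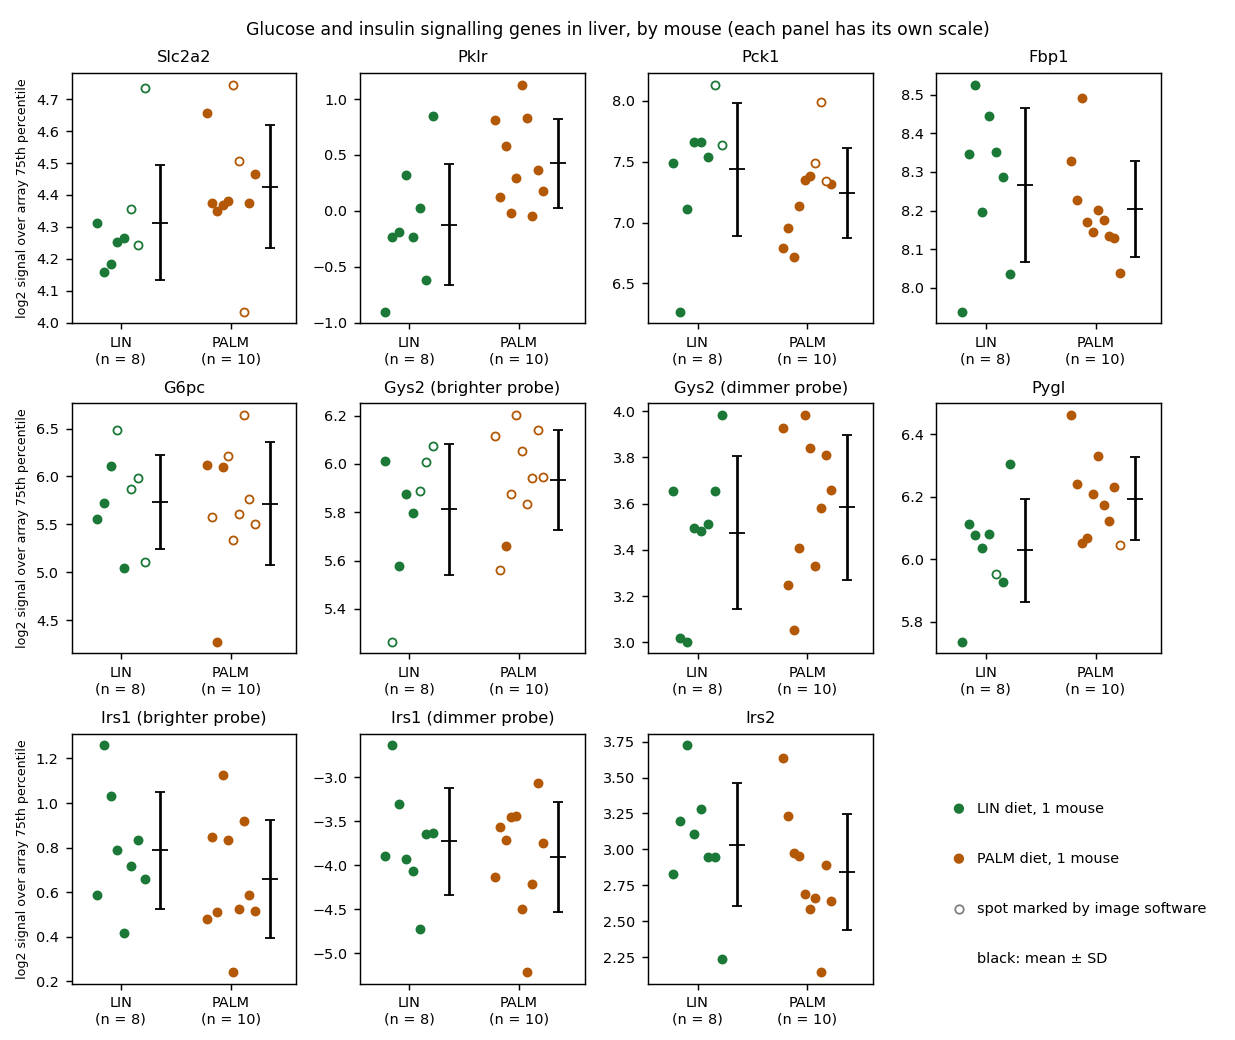
Level of each probe in every liver, as log2 signal over the array's 75th percentile, with LIN mice (green, n = 8) left of PALM mice (orange, n = 10), open circles for marked spots and black bars for mean ± SD. The ranges of the diets overlapped for all 11 probes, and Pklr had the widest gap between means, −0.12 in LIN and 0.42 in PALM livers.

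Slc2a2, the glucose carrier, was measured by a probe at chr3:28627016-28627075 (mm9, plus strand). Its level ran from 4.16 over a median of 4.26 to 4.73 in LIN livers, and from 4.03 over a median of 4.38 to 4.75 in PALM livers. The ranges overlapped, with 8 of 10 PALM livers inside the LIN range. The difference was −0.11 ± 0.09 (SE; 95% interval −0.30 to 0.08; adjusted p = 0.713). The probe was marked on 3 LIN and 3 PALM arrays, and the marked ones included the highest LIN, the highest PALM and the lowest PALM value. Over the 5 LIN and 7 PALM arrays that remained, the level was 4.16 to 4.31 in LIN livers and 4.35 to 4.66 in PALM livers. These ranges did not overlap, but with 5 LIN values the probe was under the minimum for a test, and the pattern was noticed after its values were seen. Of the 100 probes with values on 5 LIN and 7 PALM arrays, Slc2a2 included, 2% had ranges that did not overlap. On the 5 slides, with marked spots kept, the difference was above 0 on 2 and below 0 on 3, from −0.30 to 0.31. Those above 0 were slide 4 (0.03) and slide 5 (0.31). The marked LIN arrays were replicates 6, 7 and 8, which are all the LIN arrays of these slides, whereas PALM replicates 9 and 10 of slide 5 were unmarked. The ranges without marked spots thus set LIN livers of slides 1 to 3 against PALM livers of slides 1, 2, 3 and 5.

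Pklr, whose product makes pyruvate at the end of glycolysis, showed the largest difference of the 11 probes. The level ran from −0.90 over a median of −0.21 to 0.85 in LIN livers, and from −0.05 over a median of 0.33 to 1.13 in PALM livers. Of the LIN livers, replicates 1, 7, 2, 5 and 3 lay below every PALM liver, at −0.90, −0.62, −0.24, −0.24 and −0.19, while replicate 8 at 0.85 lay above 9 of 10 PALM livers. Means were −0.12 ± 0.54 in LIN livers (SD, n = 8) and 0.42 ± 0.40 in PALM livers (SD, n = 10). The difference of −0.55 ± 0.21 (SE; 95% interval −0.98 to −0.11) is 1.46-fold, and the limma test gave p = 0.0165 before adjustment and 0.306 after it. No array had a marked Pklr spot. Without LIN replicate 8 the difference was −0.69 and without LIN replicate 1 it was −0.44, with adjusted p between 0.101 and 0.505 whichever array was left out. Within slides it was −0.95 on the 3 arrays taken as slide 1, −1.04 on slide 2, −0.21 on slide 3 and −0.69 on slide 4, and 0.58 on slide 5, which held LIN replicate 8. The Pklr probe spans 519 bases at chr3:88948907-88949425 (mm9, plus strand), so its 60 bases cross an intron.

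Pck1, the gene of the first committed gluconeogenic step, did not separate the diets. Its level, from a probe at chr2:172984307-172984366 (mm9, plus strand), was 6.27, 7.59 and 8.13 in LIN livers as lowest, median and highest, and 6.72, 7.33 and 7.99 in PALM livers. All 10 PALM livers lay inside the LIN range, and the difference was 0.19 ± 0.20 (SE; 95% interval −0.24 to 0.62; adjusted p = 0.799). It was above 0 on all 5 slides, from 0.003 to 0.46. With the 2 LIN and 3 PALM marked spots left out it was 0.20 ± 0.21 (SE; adjusted p = 0.814).

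Fbp1, which removes a phosphate from fructose-1,6-bisphosphate, had the narrowest interval but 1. The probe at chr13:62966175-62966234 (mm9, minus strand) gave 7.94, 8.32 and 8.53 in LIN livers as lowest, median and highest, and 8.04, 8.17 and 8.49 in PALM livers. All PALM livers lay inside the LIN range, and the difference was 0.06 ± 0.08 (SE; 95% interval −0.11 to 0.23; adjusted p = 0.844). The spot was saturated on 3 LIN and 4 PALM arrays, where its value is a lower limit.

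G6pc, whose product frees glucose for export, varied more between mice than between diets. Its level at chr11:101238947-101239006 (mm9, plus strand) was 5.04, 5.80 and 6.48 in LIN livers as lowest, median and highest, and 4.27, 5.69 and 6.64 in PALM livers. The lowest of all 18 livers was PALM replicate 3, which also had the highest summed neutrophil markers, 3.04, beside at most 1.36 in LIN livers and at most 1.20 in the other PALM livers. The difference was 0.02 ± 0.26 (SE; 95% interval −0.52 to 0.56; adjusted p = 0.988). Without that liver it was −0.14, and within slides it ran from −0.73 to 1.11, the highest on slide 3, which held PALM replicate 3. Neutrophil markers were 1 of 13 marker lists examined. PALM replicate 8, next in PALM by neutrophil sum at 1.20, had the highest G6pc level, 6.64. LIN replicate 8, the highest LIN liver by that sum at 1.36, stood at 5.11 for G6pc. What the neutrophil markers had to do with the low value was not tested. The spot was marked on 4 LIN and 7 PALM arrays, so no test was made with marked spots left out.

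Gys2, which extends glycogen chains, had a brighter probe at chr6:142371157-142371216 and a dimmer one at chr6:142371915-142371974 (mm9, minus strand). The brighter probe gave 5.26, 5.88 and 6.07 in LIN livers as lowest, median and highest, and 5.56, 5.94 and 6.20 in PALM livers. The dimmer probe gave 3.00, 3.50 and 3.98 in LIN livers and 3.05, 3.62 and 3.98 in PALM livers. Both probes overlapped between diets and moved together across mice once diet means were removed (r = 0.922, rho = 0.940 over 18 arrays; permutation p = 1e-05 for each, the smallest that 100000 permutations can give). The differences were −0.12 ± 0.11 (SE; adjusted p = 0.759) and −0.11 ± 0.15 (SE; adjusted p = 0.846). The brighter probe was marked on 13 of 18 arrays and the dimmer on none.

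Pygl, the phosphorylase that releases glucose units from glycogen, showed a small difference between the diet means. The probe at chr12:71291855-71291914 (mm9, minus strand) gave 5.73, 6.06 and 6.31 in LIN livers as lowest, median and highest, and 6.05, 6.19 and 6.46 in PALM livers. PALM replicate 1, with the highest pancreas markers, held the highest value of all, and the difference without it was −0.14. LIN replicate 1 held the lowest and LIN replicate 8 the highest LIN value, as for Pklr, and 8 of 10 PALM livers lay inside the LIN range. The difference of −0.17 ± 0.08 (SE; 95% interval −0.32 to −0.01) is 1.12-fold, with p = 0.0412 before and 0.426 after adjustment in limma. With marked spots left out it was −0.17 ± 0.08 (SE; adjusted p = 0.483). Within slides it was below 0 on 4 and above 0 on 1, from −0.43 on slide 2 to 0.17 on slide 5.

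Irs1 had a brighter probe at chr1:82229692-82229751 and a dimmer one at chr1:82233564-82233623 (mm9, minus strand). The brighter probe gave 0.42, 0.75 and 1.26 in LIN livers as lowest, median and highest, and 0.24, 0.56 and 1.13 in PALM livers. The dimmer probe, well above background on 12 of 18 arrays, gave −4.72, −3.77 and −2.63 in LIN livers and −5.22, −3.73 and −3.06 in PALM livers. For each probe 9 of 10 PALM livers lay inside the LIN range. The differences were 0.13 ± 0.12 (SE; adjusted p = 0.767) and 0.17 ± 0.27 (SE; adjusted p = 0.874). The probes correlated less closely than those of Gys2 (r = 0.566, permutation p = 0.0189; rho = 0.577, permutation p = 0.0164), with r = 0.389 without the 2 arrays farthest from the median of the first probe and 0.797 with slide means removed as well. The gap between these pairs of correlations was not tested.

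Irs2, the other hepatic insulin receptor substrate, ran from 2.24 over a median of 3.03 to 3.73 in LIN livers. In PALM livers it ran from 2.14 over a median of 2.79 to 3.63, at chr8:11004490-11004549 (mm9, minus strand). LIN replicate 8, highest among LIN livers for Pklr, Slc2a2 and Pygl, was lowest among them for Irs2. The difference was 0.19 ± 0.18 (SE; 95% interval −0.19 to 0.58; adjusted p = 0.771), above 0 on 3 slides and below 0 on 2. PALM replicate 1, highest in PALM for Irs2 as for Pygl, left 0.28 when dropped, and PALM replicate 8, the lowest, left 0.12.

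**Figure D2:**
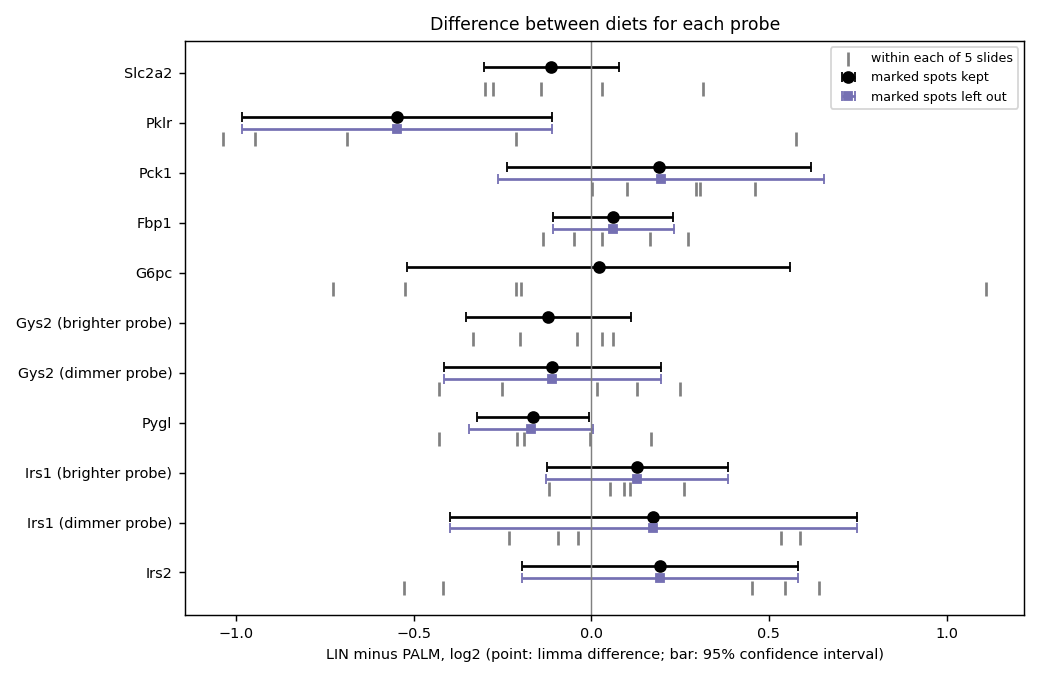
LIN minus PALM difference of each probe on the log2 scale, with marked spots kept (black) and left out (violet), 95% confidence intervals as bars, and the difference within each of 5 slides as grey ticks. All intervals lie between −1 and 1, and those of Pklr in both fits and of Pygl with marked spots kept do not cross 0, although neither gene passed the adjusted test.

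The genes differed in how much they varied among mice of one diet. The pooled SD within diets was 0.15 for Pygl, 0.16 for Fbp1 and 0.19 for Slc2a2, below the median of 0.24 over all 20386 probes. Saturation on 7 arrays limits the spread that the Fbp1 probe can show, and over the other 11 arrays its pooled SD was 0.19. It was 0.58 for G6pc, 0.47 for Pklr, 0.46 for Pck1 and 0.41 for Irs2, which put them, in the same order, at percentiles 92.4, 85.8, 85.1 and 81.0 of all probes. The dimmer Irs1 probe, not well above background on every array, had 0.62. The slide held 57.2% of the within-diet variance of Pck1 but 12.6% of that of Pklr and 12.9% of that of G6pc, beside a median of 37.5% over all probes. The slide share was thus below that median for Pklr and G6pc and above it for Pck1. The shares are not adjusted for the number of slides, so some share arises without any slide effect. Each liver had 1 array, so spread within a slide includes that of the measurement.

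Correlations among the 9 genes were computed over the 18 livers after the diet means were removed, with the brighter probe of Gys2 and of Irs1. Of 36 pairs, 18 were positive and 18 negative, and 3 passed a permutation test of Pearson's r at an adjusted p below 0.05. The share of pairs that would pass among all probes of the array was not computed, so whether 3 of 36 is many is not known. Slc2a2 and Pklr correlated at r = 0.725 (p = 0.00097, adjusted p = 0.0274) and rho = 0.472 (p = 0.056, adjusted p = 0.224). This relation rested on LIN replicate 8 and PALM replicate 6, each the highest of its diet in both genes, since without them r was 0.445. It was 0.216 over the 12 arrays with unmarked Slc2a2 spots, which leave out the same livers and others. With slide means removed as well, r was 0.751 over all 18 livers (permutation, adjusted p = 0.0769).

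Pklr and Pygl correlated at r = 0.725 (permutation p = 0.00152, adjusted p = 0.0274) and rho = 0.552 (p = 0.0233, adjusted p = 0.140). With slide means removed r was 0.770 (adjusted p = 0.0239), and without LIN replicate 8 and PALM replicate 6 it was 0.580. Fbp1 and Irs2 correlated at r = 0.663 (permutation p = 0.00399, adjusted p = 0.0479) and rho = 0.742 (adjusted p = 0.031), with r = 0.721 after slide means were removed (adjusted p = 0.0239) and 0.770 without the 2 livers farthest from the median of Fbp1. Fbp1 with Irs2 was thus the 1 pair past the threshold by all 3 measures. The Fbp1 spot was saturated on 7 arrays, so these measures do not by themselves show that the transcripts varied together. Levels are taken over the array's 75th percentile, and Fbp1 was highest where that was lowest, 8.53 at 117 (LIN replicate 3). It was lowest where that was highest, 7.94 at 204 (LIN replicate 1). Irs2 stood at 3.73 and 2.83 on these arrays in the same order, and was lowest, 2.14, at 196 (PALM replicate 8). Fbp1 was 8.13 on that last array, and the highest Irs2 level of the PALM livers, 3.63, came at 160 (PALM replicate 1). These are single arrays, and the relation to the percentile over all 18 was not computed. What the scaling had to do with the pair of Fbp1 and Irs2 was not tested. Over the 11 arrays with an unsaturated Fbp1 spot, a check added after the data were seen, r was 0.680 and rho 0.782, with no test. LIN replicates 1 and 3 were among those 11, so the range of the 75th percentile was the same and the check does not bear on the scaling. Pck1 and G6pc, both targets of glucagon and of FOXO1, correlated at r = 0.283 (permutation, adjusted p = 0.529).

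**Figure D3:**
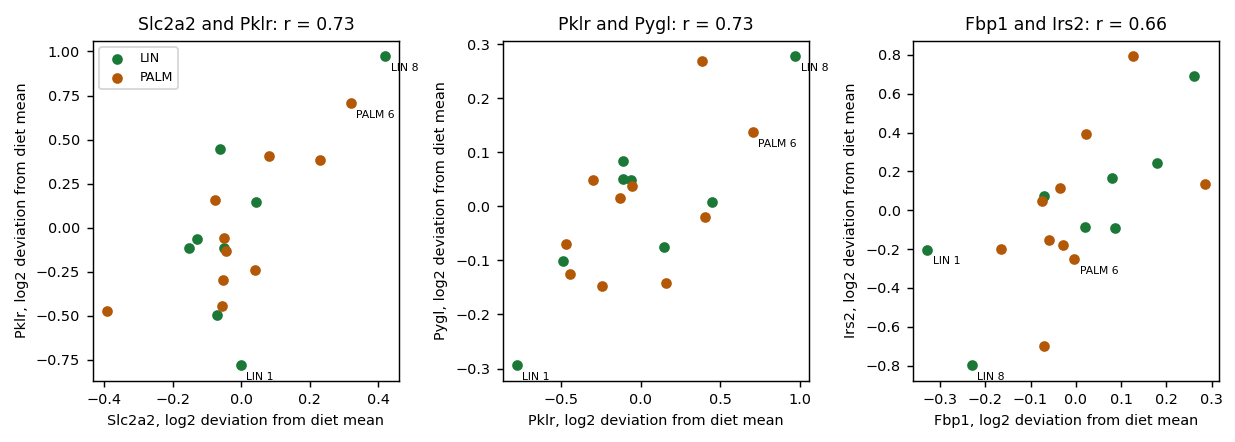
Deviation of each liver from its diet mean on the log2 scale for Slc2a2 and Pklr, Pklr and Pygl, and Fbp1 and Irs2, with LIN mice in green and PALM mice in orange. LIN replicate 8 sits at the upper right of the first 2 panels and at the bottom of the third.

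The genes most alike each member across the livers were taken as those with the highest r after diet and slide means were removed, as a description without a test. With diet means alone removed, the r of the genes named here was lower for most, between 0.554 and 0.904. For Pklr they were Slc50a1, a sugar transporter (r = 0.894), Acly, the ATP citrate lyase that supplies acetyl-CoA for lipid synthesis (0.876), and Rab19 (0.872). With slide means left in, these were 0.597 for Slc50a1, 0.835 for Acly and 0.582 for Rab19. For Pygl they were Gpi1, the glycolytic glucose phosphate isomerase (0.872), Eno1b, an enolase copy (0.864), and again Rab19 (0.859). The Gpi1 spot was marked on 12 of 18 arrays. The Slc2a2 probe was most like Slc17a4 (0.933), Atg10 (0.922) and Gpam (0.897), the last an enzyme of triglyceride synthesis.

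For Fbp1 the closest were Apoc3 (0.963), Serpina1d (0.962) and Gc (0.962). The spots of these 3 were saturated on 16, 17 and 12 of 18 arrays, and that of Fbp1 on 7. The level of a saturated spot is a lower limit. These 3 values of r therefore do not show that the transcripts varied together. What the scaling of the arrays had to do with these values was not tested. For Pck1 they were Cdip1 (0.936), Rad54l2 (0.923) and 1600020E01Rik (0.918), and for G6pc they were Xiap (0.881), H3f3a (0.874) and Slc25a25 (0.872), a mitochondrial carrier. For Gys2 they were Fam120a (0.942), Mtpap (0.907) and Coq10b (0.884). Irs1 was most like Thap11 (0.885), Rhoc (0.857) and Zfp507 (0.846), and Irs2 most like Rilp (0.909), Urah (0.903; marked on 11 arrays) and Ciao1 (0.891).

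Around the 9 genes, 7 lists of 172 further genes of glucose metabolism and its control were read from the same fit. With marked spots left out, 3 of 188 probes rose in LIN livers and none fell, against 0.589% of all probes higher and 0.164% lower. With marked spots kept, 2 of 210 rose and none fell, against 0.721% and 0.186%. The median difference was 0.04 in both, beside −0.0005 and 0.002 over all probes. All the calls fell in the list of carbohydrate-responsive genes, with 3 of 19 probes or 2 of 22. The lists were chosen with earlier results of these data known, so where the calls fell is no test of that list.

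Txnip, the thioredoxin-interacting protein that limits glucose uptake and a known target of ChREBP, had a level of −0.16 ± 0.36 in LIN livers (SD, n = 8) and −0.81 ± 0.25 in PALM livers (SD, n = 10). The difference of 0.64 ± 0.14 (SE) is 1.56-fold (limma, adjusted p = 0.0361 with marked spots left out and 0.0326 with them kept). A second Txnip probe gave 0.45 ± 0.14 (SE) and was not called (adjusted p = 0.185 with marked spots kept). Arrdc4, an arrestin-family relative of Txnip, had 0.33 ± 0.11 in LIN livers (SD, n = 8) and −0.07 ± 0.19 in PALM livers (SD, n = 10), a 1.31-fold difference of 0.39 ± 0.08 (SE; limma, adjusted p = 0.0313 and 0.0268 in the same order). A second Arrdc4 probe gave 0.11 ± 0.14 (SE; limma, adjusted p = 0.838 with marked spots kept) and was not called. Gpd1, the cytosolic glycerol-3-phosphate dehydrogenase that links glycolysis to glycerolipids, had 7.13 ± 0.24 in LIN livers (SD, n = 7) and 6.50 ± 0.30 in PALM livers (SD, n = 10) with the marked spot left out (difference 0.63 ± 0.13 SE, limma adjusted p = 0.0339). With that spot kept the difference was 0.55 ± 0.14 (SE) and missed the threshold (limma, adjusted p = 0.0747). These calls were close to the threshold: Txnip stayed past it in 15 of 32 alternative settings, Arrdc4 in 21 of 33 and Gpd1 in 15 of 33. With marked spots left out, none of the 3 was called when LIN replicate 3, LIN replicate 5, PALM replicate 5 or PALM replicate 9 was dropped alone, and none without the 3 arrays taken as slide 1. The adipocyte gene Cfd, at a mean level of 2.61 in LIN and 0.07 in PALM livers, was not called but had the same sign, and its part in these calls was not tested.

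No probe passed in the other 6 lists, whose genes of smallest p are given with marked spots left out. Glycolysis and pyruvate handling had 0 of 43 probes called, and Pdk4, the kinase that shuts off pyruvate dehydrogenase in fasting, differed by 0.76 ± 0.23 (SE; limma, adjusted p = 0.185). Gluconeogenesis and its substrates had 0 of 11, with Slc25a10, the mitochondrial dicarboxylate carrier, at 0.58 ± 0.14 (SE; limma, adjusted p = 0.0603). Under alternative settings, Slc25a10 was called in 5 of 33 and Pdk4 in 1 of 33. Glycogen synthesis and breakdown had 0 of 26, with Gaa, the lysosomal glucosidase, at 0.16 ± 0.08 (SE; limma, adjusted p = 0.465). Insulin signalling had 0 of 49, with Prkcz, an atypical protein kinase C, at −0.28 ± 0.10 (SE; limma, adjusted p = 0.281). Glucagon, cAMP and transcriptional control had 0 of 35, with the coactivator Crebbp at 0.22 ± 0.10 (SE; limma, adjusted p = 0.411), and other hexose transporters had 0 of 5, with Slc2a9 at 0.19 ± 0.11 (SE; limma, adjusted p = 0.611).

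Some regulators of the 9 genes, singled out after their values were seen, were also not called with marked spots kept. Mlxipl, which encodes ChREBP, differed by −0.26 ± 0.09 (SE; adjusted p = 0.241). The 2 probes of Foxo1, the insulin-restrained activator of Pck1, G6pc and Irs2, gave 0.17 ± 0.17 and 0.17 ± 0.18 (SE; adjusted p = 0.771 and 0.790). Igfbp1, a FOXO target secreted by the liver, gave −0.28 ± 0.26 (SE; adjusted p = 0.766). Also singled out in this way within the carbohydrate-responsive list, G6pdx, the first enzyme of the pentose phosphate pathway, gave −0.61 ± 0.25 (SE; adjusted p = 0.344). The fructose carrier Slc2a5 gave −0.32 ± 0.15 (SE; adjusted p = 0.434) and Thrsp, a lipogenic factor, −0.49 ± 0.39 (SE; adjusted p = 0.706).

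**Figure D4:**
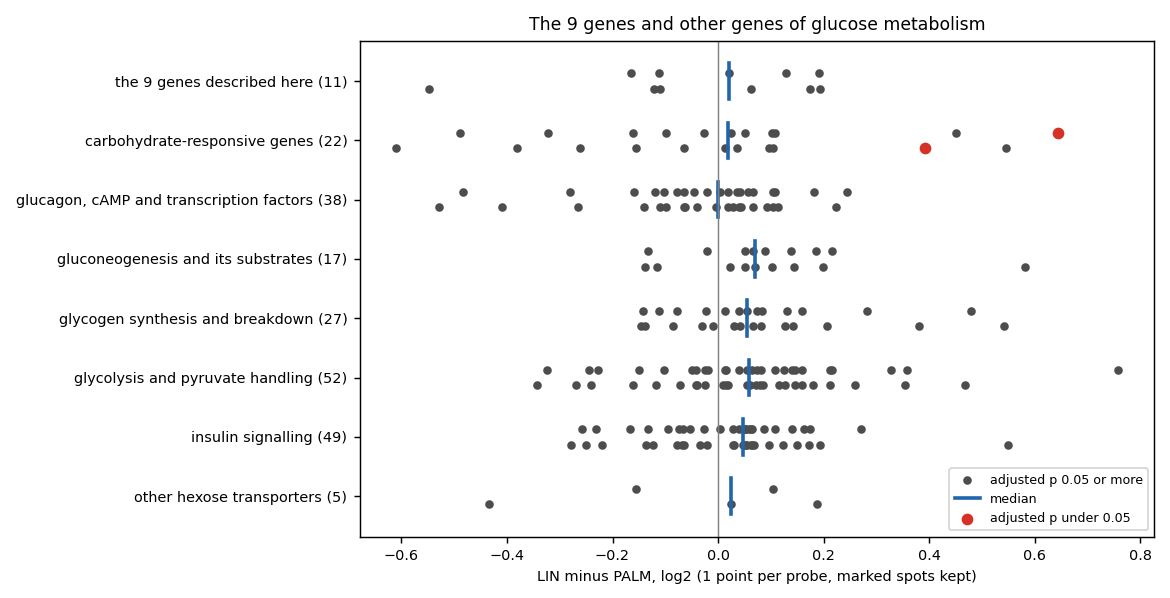
LIN minus PALM difference of every tested probe on the log2 scale, marked spots kept, for the 9 genes and 7 lists (number of probes in brackets), with list medians as blue bars. The 2 red points are Txnip at 0.64 and Arrdc4 at 0.39, and the 11 probes of the 9 genes lie between −0.55 and 0.19.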

How the data were processed

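The submitters labelled total RNA from 18 livers (1 µg each) with Cy3 and hybridised it to 1-colour Agilent arrays, read per the file headers with Feature Extraction 9.5.3.1. Each deposited file holds 1 array's processed signal, an intensity the authors' software had background-corrected but not scaled between arrays. The log2 values of the authors' deposited table (18060 probes, column medians 7.85) served as an alternative, and the limma use listed in the submitters' processing notes has no stated settings. Genome positions are mm9 per the file headers; other alignment steps are not given in the sources used here.

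Here log2 of the processed signal minus the array's 75th percentile over non-control spots was fitted with limma 3.58.1 in R 4.3.3, every probe on its own, two-sided, with Benjamini-Hochberg adjustment and a threshold of 0.05. Probes entered the fit with the well-above-background mark on 8 arrays or more and with values for 6 or more livers per diet. Spots of a probe were averaged, and marked spots (non-uniform or population outliers) were kept in one fit and left out in the other. The fit was tested on simulated data. The number of arrays limits the precision, and the labels number the samples as replicates of a diet without naming cages, so p-values measure the spread between these livers.

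Correlations used 100000 permutations within diet. The genes and lists were chosen with earlier results of these data known. Named genes of a list are those called, or otherwise the one of smallest p; the 3 most alike genes of each member were taken by r. Both diets share the numbers 1 to 8, but deviations of same-numbered samples correlated at −0.21 to 0.46 and not all above 0.1, so the numbers were not taken as pairs. Alternatives covered background, scaling, filters, slide, empirical Bayes, the authors' table and each array left out. One gene of the lists is not reported here.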

Additional observations from a re-analysis of the deposited data

Results flagged for a closer look

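Slc2a2 in LIN replicate 8 stood at 4.73, above the next LIN liver at 4.36, and this gap was 0.656 of the range of the 8 LIN livers, beyond Dixon's 95% critical value. It was the one value so far out among 22 groups of livers examined, and chance gives such a value in about 1 of 20 groups. The spot was marked by the image software in that liver, and the same liver had the highest Pklr and Pygl levels of the LIN group, 0.85 and 6.31. Without it the Slc2a2 difference, LIN minus PALM, was −0.17 (limma, adjusted p = 0.385 or more whichever array was left out).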

How the results depend on the processing

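No probe of the 9 genes was called under any alternative, and the smallest adjusted p in 350 probe-by-setting fits was 0.101, for Pklr without LIN replicate 8. Pklr kept its sign in all 33 refitted settings (−0.73 to −0.38), as did Pygl (−0.22 to −0.12). Uncalled differences near 0 changed sign: Fbp1 gave −0.00604 under quantile normalization, the dimmer Irs1 probe −0.000692 under normexp, and G6pc −0.013 under quantile normalization, −0.019 with the percentile over unmarked spots, −0.031 and −0.00262 with slide as a fixed or random block and −0.000618 in the authors' table. Leaving out 1 array moved G6pc between −0.14 and 0.12. The counts called moved more, and the cause was not tested. With marked spots left out, the 3 pathway probes and 147 probes in all became 1 and 74 under normexp, 0 and 50 with the percentile over unmarked spots, 0 and 49 with no filter on dim probes, 0 and 33 without slide 1, and 0 and 25 without slides 4 and 5. All probes called numbered 253 with slide as a random block and 87 in the authors' table. With marked spots kept, 2 pathway probes and 185 in all became 1 and 86, 0 and 59, 0 and 58, 0 and 37, and 1 and 41 under those same settings in that order, 4 and 312 with the random block, and 1 and 122 in the authors' table; pathway probes fell to 1 with the brightest probe of each gene. Leaving out 1 array gave 0 to 4 pathway probes in either fit, and 59 to 184 or 85 to 219 probes in all, lowest without LIN replicate 5 and highest without LIN replicate 8. With the replicate block, 0 pathway probes and 20 or 30 probes in all were called and 0 of the 9 genes; numbers 1 to 5 and 7 also share a slide. By Spearman's rho 1 pair of genes passed in place of 3. Slc2a2, G6pc and the brighter Gys2 probe could not be fitted with marked spots left out.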
